A study of Homo sapiens with 120 samples.

Results

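The 2 mature strands of the human miR-126 hairpin, miR-126-5p and miR-126-3p, were followed through 96 small RNA libraries of HEK293T cells, a human embryonic kidney line. They are 2 of the 2652 mature miRNA names in the deposited tables, and each has 1 row there. The hairpin was chosen by its measured 5p to 3p ratio, which had shifted in total RNA of lines that lack TRBP. That shift and the levels behind it are described below without a test. Tests are given for other comparisons and for the pulldown libraries. In the pulldown, the p-values for lines that lack TRBP are not independent support for the shift. The labels state that every line descends from a parental line in which PKR, a kinase activated by double-stranded RNA (dsRNA), was knocked out. Experiment 1 compared that Parental line with lines carrying an additional knockout of PACT, of TRBP, or of both (PACT_TRBP). Experiment 2 compared Parental cells with lines labelled as knockouts of Ago2, of Ago1 and Ago2 (Ago1/2), and of Dicer. Each line was mock transfected or received dsGFPc or dsGFPd, as the labels call the long dsRNAs. Sequencing covered total RNA as well as the RNA that a peptide affinity pulldown recovered with Argonaute (Ago) proteins. Every combination of line, transfection and fraction has 2 libraries, which gives 48 libraries per experiment and 6 per line and fraction. Whether a line is a single clone, whether the 2 libraries came from separate cultures, and whether a total and a pulldown library came from the same cells is not given in the sources used here. P-values therefore measure the spread between these libraries, which may be technical, and the pulldown libraries may share cells with the libraries in which the shift was noticed.

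A miRNA hairpin is cut by Dicer into a short duplex of a 5p and a 3p strand. An Ago protein keeps 1 strand of that duplex as a guide and discards the other, and it tends to keep the strand whose 5′ end is the less stably paired or begins with U or A. TRBP and PACT are dsRNA-binding proteins that sit on Dicer and are known to influence where it cuts and which strand is loaded. The miR-126 hairpin lies in an intron of EGFL7, a gene of endothelial cells, and is known for its role in blood vessels, where miR-126-3p restrains inhibitors of VEGF signalling and miR-126-5p also has targets of its own.

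The sequences below are shown because all results concern the balance between these strands of the same duplex. They come from RefSeq on GRCh38.p14. The MIR126 hairpin covers chr9:136670602-136670686 on the plus strand, inside the span of the protein-coding gene EGFL7 (chr9:136658856-136672678). The 5p strand is at chr9:136670616-136670636 and the 3p strand at chr9:136670653-136670674. Capitals mark the 2 mature strands in the hairpin, and the seed (bases 2 to 8) in each mature strand. The guide strand of miR-221 (chrX:45746180-45746202, minus strand), a hairpin whose ratio also shifted without TRBP, is given for comparison.
MIR126 hairpin: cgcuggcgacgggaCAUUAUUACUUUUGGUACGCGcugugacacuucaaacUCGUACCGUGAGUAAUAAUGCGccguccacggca
miR-126-5p: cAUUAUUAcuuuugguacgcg
miR-126-3p: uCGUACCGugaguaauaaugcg
miR-221-3p: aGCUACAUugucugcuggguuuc
The 5p strand has 21 bases and the 3p strand 22, and 16 bases lie between them. Neither seed is shared with another mature human miRNA in the table (0 others for each), while the seed of miR-221-3p is shared with 1 other, miR-222-3p. Of the first 4 bases, 3 are A or U in miR-126-5p and 2 in miR-126-3p. In the RNAfold minimum energy structure of the hairpin, 18 bases of each strand are paired, and the first 4 bases hold 1 G-C pair at the 5p end and 2 at the 3p end. The 5p strand begins with C and the 3p strand with U. Among 173 of 220 tested hairpins whose strands matched the table, 7 (4.05%) have this combination of first bases, 14 (8.09%) have the same A and U counts at both ends, and 44 have the same difference in G-C pairs.

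Depth sets the precision of a strand ratio. Libraries of experiment 1 held 406531 to 1104630 miRNA reads in total RNA and 2457547 to 13457933 in the pulldown. The 5p strand of miR-126 had 58 to 312 reads per total library and the 3p strand 48 to 167, which gives a counting error (SD) of 0.14 to 0.28 on the log2 ratio. In the pulldown the strands had 184 to 2296 and 76 to 1686 reads, and the counting error was 0.05 to 0.19. Intervals and counting errors cover counting only, since reads without molecular identifiers are not independent molecules. Both strands were of middling abundance for this cell line: by mean level in Parental total RNA, miR-126-5p ranked 161 and miR-126-3p 164 of 422 miRNAs tested, and in the Parental pulldown they ranked 197 and 206 of 897. In bulk libraries a change in the share of cells with a miRNA and a change per cell cannot be told apart. Of 8 other miRNAs that mark vascular smooth muscle or blood cells, miR-223-3p and miR-144-3p were at 0 in all 48 libraries of experiment 1, and nearly all of the summed level came from miR-143-3p. That sum had medians of 49.4 (Parental), 83.6 (PACT knockout), 59.8 (TRBP knockout) and 62.3 (PACT_TRBP knockout) normalised counts in total RNA, over ranges of 39.1 to 125.9, 50.2 to 158.3, 36.4 to 70.0 and 39.9 to 84.9. In the pulldown its medians were 81.9, 147.5, 73.0 and 111.0. The part of other cells in the ratio was not tested.

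In total RNA of experiment 1, Parental libraries held the strands in nearly equal amounts, and PACT knockout libraries ran from near balance to an excess of 3p. Cells that lacked TRBP held more 5p than 3p in every library. The ratio is log2((5p + 1)/(3p + 1)) of the deposited normalised counts, so 0 means equal strands. The 6 Parental libraries ran from -0.20 through a median of 0.06 to 0.18, and the 6 PACT knockout libraries from -0.66 through -0.16 to 0.04. The 6 TRBP knockout libraries ran from 0.47 through 0.70 to 1.29, and the 6 PACT_TRBP knockout libraries from 0.45 through 0.73 to 1.33. Both sets without TRBP lay wholly above both sets with TRBP, whichever transfection was used. How many other hairpins separated in this way was not counted. In reads, the 5p share of the hairpin was 46.4% to 53.2% in Parental and 38.6% to 50.7% in PACT knockout libraries, against 58.1% to 71.0% in TRBP and 57.7% to 71.8% in PACT_TRBP knockout libraries. The libraries nearest to each other across that gap show its width: the highest Parental share, 53.2% of the reads in the dsGFPc library of replicate 2, has a Wilson 95% interval of 43.9% to 62.3%, and the lowest share without TRBP, 57.7% in the mock PACT_TRBP knockout library of replicate 1, has 51.8% to 63.4%. These intervals overlap.

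The plot of the ratio by library shows this gap in total RNA and the wider scatter in the pulldown.

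**Figure D1:**
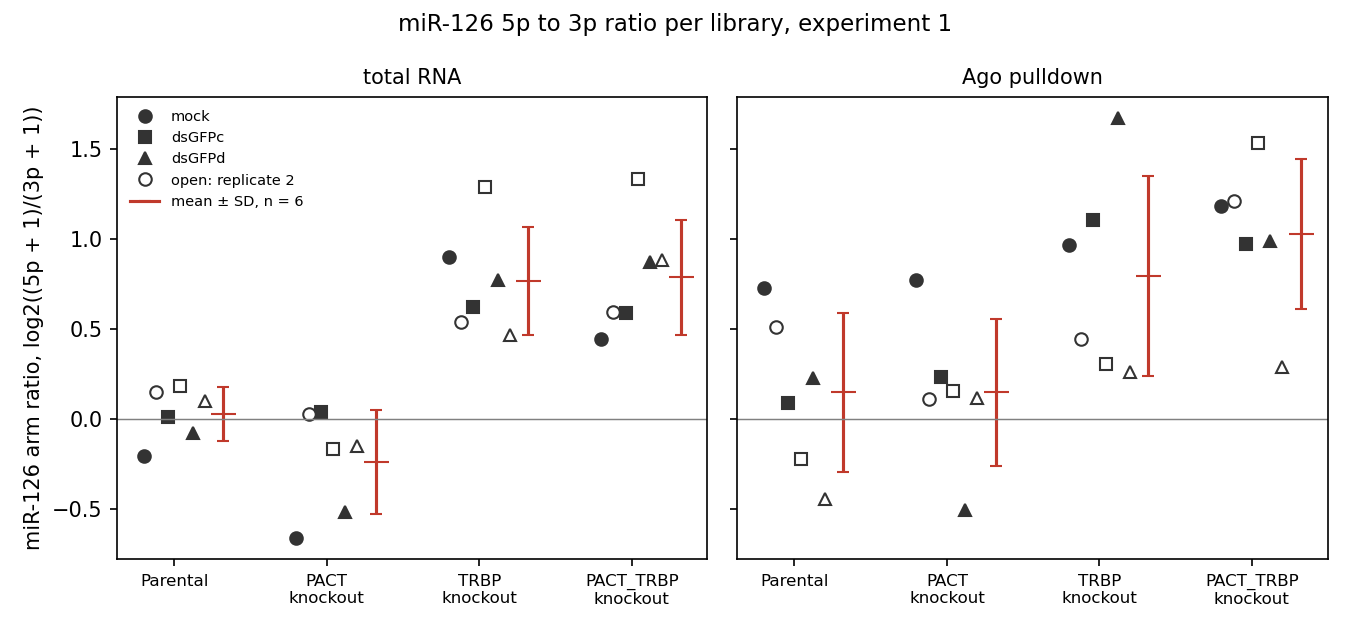
Each point is 1 library of experiment 1; the vertical axis is the log2 ratio of miR-126-5p to miR-126-3p, marker shape gives the transfection, open markers are replicate 2, and the red bar is the mean with its SD over 6 libraries. In total RNA (left) the lines without TRBP start at 0.45 and the lines with TRBP end at 0.18, while in the Ago pulldown (right) the 4 lines overlap.

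As differences of means from the fit across all hairpins, the ratio in total RNA was higher than Parental by 0.74 (SE 0.19; 1.67-fold) in the TRBP knockout and by 0.76 (SE 0.19; 1.69-fold) in the PACT_TRBP knockout, and the latter exceeded the PACT knockout by 1.02 (SE 0.19). These differences chose the hairpin and carry no test. They were similar within each transfection, at 0.74 (mock), 0.86 (dsGFPc) and 0.61 (dsGFPd) for the TRBP knockout and 0.55, 0.86 and 0.87 for the PACT_TRBP knockout, with 2 libraries a group. The ranks that follow restate that choice and are no support for the shift, and miR-221 had been named for the same shift in earlier results of these data. Ordered by the size of the difference over its standard error, miR-126 stood at rank 1 of 101 hairpins in the TRBP knockout and miR-221 at rank 2 (difference 0.40, SE 0.11), followed by miR-27a (-1.27, SE 0.38) and miR-454 (0.68, SE 0.22). In the PACT_TRBP knockout miR-221 stood at rank 1 (0.70, SE 0.11), miR-126 at rank 2, miR-25 at rank 3 (0.41, SE 0.14) and miR-222 at rank 4 (0.42, SE 0.15). By size alone miR-126 was not at the top: 7 of 101 hairpins, itself included, had a difference at least as high in the TRBP knockout and 6 in the PACT_TRBP knockout, where the medians of all hairpins were 0.05 and 0.05.

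The strands contributed differently in the 2 lines without TRBP. In the TRBP knockout the 5p strand was high and the 3p strand overlapped the Parental range. miR-126-5p in total RNA was 113.4 to 140.6 normalised counts in Parental libraries (median 122.5) and 159.8 to 233.5 in TRBP knockout libraries (median 210.1), with no overlap. Such differences were common in this comparison, where 20.6% of 422 miRNAs passed by limma and miR-126-5p ranked 68 by absolute difference. How many other miRNAs separated without overlap was not counted. miR-126-3p was 100.3 to 139.3 in Parental (median 123.7) and 92.0 to 140.2 in TRBP knockout libraries (median 121.9), which overlap. On the log2(value + 1) scale the differences were 0.71 (SE 0.12) for 5p and -0.02 (SE 0.14) for 3p. In the PACT_TRBP knockout the 5p strand was 129.6 to 184.5 (median 166.9) and the 3p strand 68.4 to 110.9 (median 102.4), both overlapping Parental, and the differences were 0.37 (SE 0.12) and -0.39 (SE 0.14). The ratio there was made of a smaller excess of 5p and a deficit of 3p. All 4 values are descriptions of the choosing contrast.

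**Figure D2:**
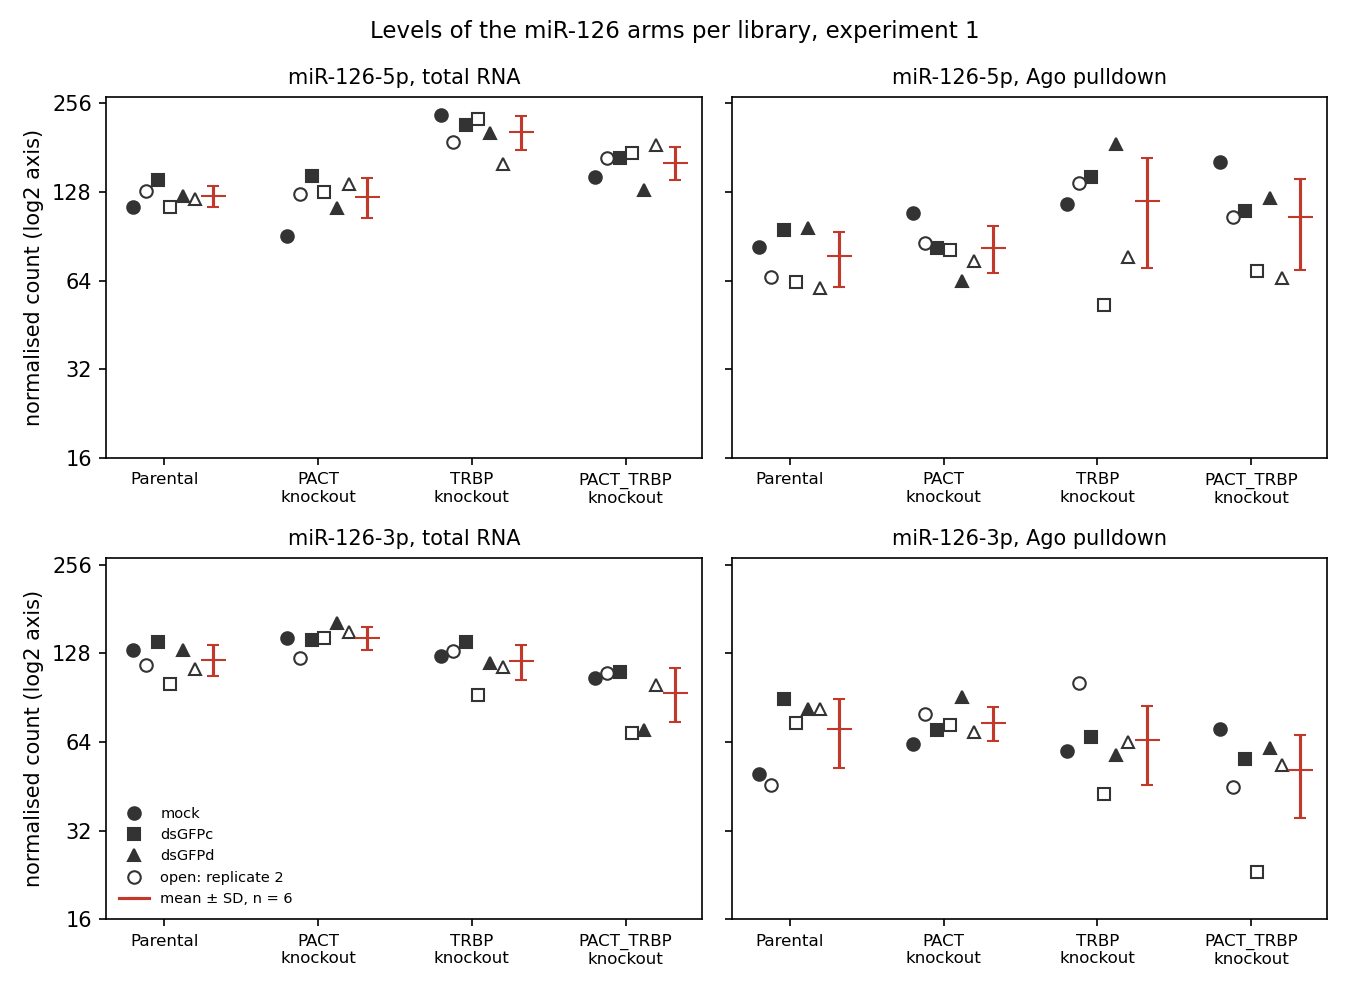
Each panel shows the deposited normalised count of 1 strand in 1 fraction of experiment 1 on a log2 axis, with a point per library, marker shape for the transfection, open markers for replicate 2, and the mean with its SD over 6 libraries in red. In total RNA miR-126-5p is 159.8 to 233.5 in the TRBP knockout against 113.4 to 140.6 in Parental, and in the pulldown filled points (replicate 1) often lie above open ones for miR-126-5p.

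The direct comparison of the 2 lines without TRBP was not part of the choice and was tested. Their strand ratios did not differ by more than the spread between libraries: the PACT_TRBP knockout minus the TRBP knockout was 0.02 (95% interval -0.37 to 0.42), with an adjusted p of 0.953 by limma (2.97% of 101 hairpins passed) and an exact two-sided permutation p of 0.872 for 6 against 6 libraries. Both strands passed the test as lower in the PACT_TRBP knockout, by nearly the same amount: miR-126-5p fell by 0.34 (SE 0.12, adjusted p 0.0249) and miR-126-3p fell by 0.37 (SE 0.14, adjusted p 0.0397). In that comparison 35.5% of 422 miRNAs passed. Both calls were lost when columns were scaled to the same sum (-0.22, adjusted p 0.145, and -0.25, adjusted p 0.214) and without replicate 1 (-0.12, adjusted p 0.677, and -0.29, adjusted p 0.321). The 3p call was lost without replicate 2 as well (-0.44, adjusted p 0.0981) and on leaving out any of 7 single libraries, and the 5p call on leaving out any of 3.

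PACT alone left the balance of the strands without a detected change. In total RNA the PACT knockout minus Parental was -0.27 for the ratio (95% interval -0.66 to 0.13, limma adjusted p 0.91, 0% of 101 hairpins passed), and the exact permutation p was 0.0693. The libraries overlapped, and the direction was opposite to that seen without TRBP. miR-126-5p differed by -0.02 (SE 0.12, adjusted p 0.984) and miR-126-3p by 0.25 (SE 0.14, adjusted p 0.607), in a comparison where 1.42% of 422 miRNAs passed. By limma 0 hairpins passed for the ratio, 2 had an unadjusted p under 0.05, and edgeR on recovered reads also called 0.

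The shift that led to the choice was a result of total RNA, but the rule names no fraction, so the p-values of the Ago pulldown for lines without TRBP are not independent support for it. In the pulldown, too, the lines without TRBP had the higher mean ratio, but the 4 lines overlapped and the result depended on the line and on the test. The Parental libraries ran from -0.44 through a median of 0.16 to 0.73 and the PACT knockout libraries from -0.50 through 0.13 to 0.77. The TRBP knockout libraries ran from 0.26 through 0.70 to 1.67 and the PACT_TRBP knockout libraries from 0.29 through 1.09 to 1.53. All 12 pulldown libraries without TRBP held more 5p than 3p, but so did 4 of 6 Parental and 5 of 6 PACT knockout libraries. Of the lines without TRBP, 3 of 6 TRBP and 5 of 6 PACT_TRBP knockout libraries lay above the highest Parental library. How many other hairpins did so was not counted. The means were 0.15 ± 0.44 (SD, n = 6) in Parental, 0.15 ± 0.41 in the PACT knockout, 0.79 ± 0.56 in the TRBP knockout and 1.03 ± 0.42 in the PACT_TRBP knockout.

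The p-values in this paragraph and the next are for lines whose shift led to the choice. They describe the pulldown libraries and are not independent support for that shift. The PACT_TRBP knockout minus Parental was 0.88 in the pulldown (95% interval 0.23 to 1.53, 1.84-fold). The exact permutation test over the 12 libraries gave p = 0.00649, and 0.0357 after adjustment over the 11 ratio comparisons tested this way, with a smallest possible p of 0.00216. Leaving out any single library kept the difference between 0.76 and 1.03 and the exact p between 0.00433 and 0.0173. The same line against the PACT knockout gave 0.88 (95% interval 0.23 to 1.53), an exact permutation p of 0.00433 and an adjusted 0.0357, with an exact p of 0.00433 to 0.0152 on leaving out single libraries. In the fit across all hairpins neither difference passed, with limma adjusted p-values of 0.272 and 0.434, and 0 of 220 hairpins (0% in each) did, although 16 and 19 had an unadjusted p under 0.05 and edgeR also called 0. With only the 35 hairpins whose strands both averaged at least 50, the limma difference from Parental passed (adjusted p 0.0382, 3 of 35 hairpins passed). That from the PACT knockout did not (adjusted p 0.114, 0 of 35 passed). For the difference from Parental, 0 hairpins passed with the replicate block, with a pseudocount of 0.5 or without a filter.

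For the TRBP knockout the pulldown difference from Parental was 0.64 (95% interval -0.01 to 1.30), with a limma adjusted p of 0.535 and 0% of 220 hairpins passing (19 at an unadjusted p under 0.05, 0 by edgeR). The exact permutation p was 0.052, adjusted 0.124, and lay between 0.0346 and 0.108 on leaving out single libraries. The 3 libraries of replicate 1 (0.96, 1.11 and 1.67) all lay above the 3 of replicate 2 (0.44, 0.31 and 0.26). Within replicate 1 the line exceeded Parental by 0.90 and within replicate 2 by 0.39. Mock libraries alone gave 0.08, against 0.77 with dsGFPc and 1.08 with dsGFPd. That dependence on dsRNA was compared as an interaction added after the values were seen, and did not pass (0.84, SE 0.67, adjusted p 0.772, 0 of 220 hairpins called).

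The same split by replicate number ran through the 5p strand in the pulldown: miR-126-5p was higher in replicate 1 than in replicate 2 in 10 of 12 pairs of libraries, against 5 of 12 in total RNA. In the TRBP knockout pulldown it was 116.7 (mock), 143.9 (dsGFPc) and 186.0 (dsGFPd) normalised counts in replicate 1 and 137.7, 53.0 and 76.8 in replicate 2. The PACT_TRBP knockout gave 161.8, 110.4 and 121.8 in replicate 1 and 105.0, 68.9 and 65.5 in replicate 2. The difference of the PACT_TRBP knockout from Parental was 0.70 within replicate 1 and 1.06 within replicate 2, and that from the PACT knockout 0.88 and 0.88.

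Neither strand alone passed the test in the pulldown. miR-126-5p differed from Parental by 0.53 (SE 0.25, limma adjusted p 0.264, 3.9% of 897 miRNAs passed) in the TRBP knockout and by 0.40 (SE 0.25, adjusted p 0.522, 2.12% passed) in the PACT_TRBP knockout. miR-126-3p differed by -0.12 (SE 0.24, adjusted p 0.83) and -0.48 (SE 0.24, adjusted p 0.394). Against the PACT knockout, the PACT_TRBP knockout differed by 0.29 for 5p (adjusted p 0.704) and -0.59 for 3p (adjusted p 0.339), where 0.334% of miRNAs passed. The signs match those in total RNA for each of these strands and lines. The PACT knockout did not differ detectably from Parental in the pulldown: the ratio differed by -0.00046 (95% interval -0.65 to 0.65, adjusted p 0.999, exact permutation p 0.998, 0% of 220 hairpins passed, 1 at an unadjusted p under 0.05), 5p by 0.11 and 3p by 0.11 (adjusted p 0.995 for each, 0% of 897 miRNAs passed, 30 at an unadjusted p under 0.05, 0 by edgeR and 4 by DESeq2). The PACT_TRBP knockout minus the TRBP knockout was 0.24 for the ratio (95% interval -0.42 to 0.89, adjusted p 0.83, exact permutation p 0.413, 0.455% of hairpins passed), -0.13 for 5p (adjusted p 0.78) and -0.36 for 3p (adjusted p 0.375), where 10.5% of miRNAs passed.

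**Figure D3:**
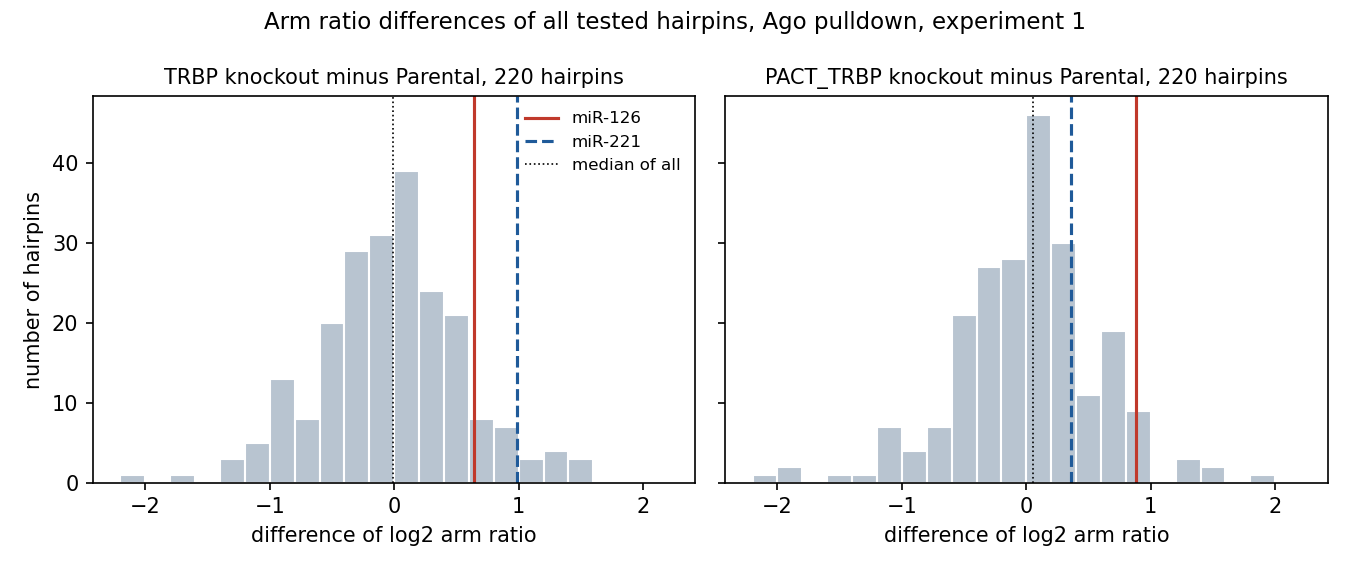
Histograms of the difference in log2 strand ratio from Parental in the Ago pulldown of experiment 1, for the 220 hairpins tested, in the TRBP knockout (left) and the PACT_TRBP knockout (right); lines mark miR-126, miR-221 and the median of all. miR-126 lies at 0.64 and 0.88, with 25 and 11 hairpins at least as high (itself included), and the medians are -0.01 and 0.06.

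Set beside all hairpins in the histograms, the miR-126 differences were high but not at the edge. In the TRBP knockout pulldown 25 of 220 hairpins were at least as high, over a range of -2.05 to 1.47. In the PACT_TRBP knockout 11 were, over -2.04 to 1.89. By difference over standard error miR-126 ranked 18 and 6. miR-221 ranked 2 in the TRBP knockout pulldown (0.99, SE 0.32) and 58 in the PACT_TRBP knockout (0.36, SE 0.32). The 6 other hairpins whose 5p strand begins with C and 3p strand with U had a median difference of -0.12 in the TRBP knockout pulldown, beside -0.01 for all.

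By correlation over the 24 total RNA libraries, the hairpins whose ratio most resembled that of miR-126 were miR-10b (Pearson r 0.65), miR-221 (0.61) and let-7a (0.53) of 100 others. Their mean log2 ratios in Parental, PACT, TRBP and PACT_TRBP knockout cells were 12.8, 12.9, 13.9 and 14.1 for miR-10b, -3.60, -3.74, -3.20 and -2.90 for miR-221, and 10.3, 10.5, 11.3 and 11.4 for let-7a. miR-10b and let-7a have far more 5p than 3p and miR-221 far more 3p, whereas miR-126 is close to balance. For scale, 22.2% of 81 hairpins with sequence in total RNA and 28.9% of 173 in the pulldown had a mean Parental ratio within 1 log2 unit of equality. Over the 24 pulldown libraries the closest were miR-182 (0.57), miR-221 (0.49) and miR-92b (0.48) of 219. These libraries share lines, transfections and scaling, so the coefficients are descriptions.

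The levels of the miR-126 strands correlated at -0.25 over 24 total libraries and 0.19 over 24 pulldown libraries. The hairpin was chosen because its ratio differed between lines in these total libraries, so a low correlation there is partly built in. The pulldown libraries may share cells with them, and counting error can weaken either coefficient. Whether the strands follow each other within a line was not tested. The miRNAs closest to miR-126-5p in total RNA were miR-129-5p (r 0.76), miR-146a-5p (0.75) and miR-192-5p (0.71), and those closest to miR-126-3p were miR-151a-5p (0.72), miR-204-5p (0.66) and miR-151a-3p (0.66). In the pulldown they were miR-148b-3p (0.87), miR-33b-3p (0.73) and miR-1236-3p (0.69) for 5p and miR-3129-3p (0.65), miR-676-5p (0.65) and miR-191-3p (0.62) for 3p. No miRNA is on the lists of both strands.

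Of 37 names on a list of angiogenesis-linked miRNAs, 29 were tested in the pulldown. In the TRBP knockout 0 passed as higher and 7 as lower than Parental, beside 1.34% higher and 2.56% lower of all 897, and the median difference was -0.25 beside -0.04 for all. The 7 were both strands of miR-221 (-2.07 for 5p and -3.06 for 3p) and of miR-222 (-2.55 and -2.41), which come from neighbouring hairpins, and miR-296-3p (-0.81), miR-424-3p (-0.79) and miR-503-5p (-0.50). In the PACT_TRBP knockout 0 of 29 passed in either direction (2.12% of all), with a median of -0.01 beside -0.09 for all. In the PACT knockout 0 of 29 passed in the pulldown, and 2 of 26 were lower in total RNA, miR-10b-5p (-0.23) and miR-221-5p (-0.39), beside 0.948% of all 422. The lines without TRBP differed from each other here: 10 of 29 list members passed as higher and 4 as lower in the PACT_TRBP than in the TRBP knockout, beside 3.9% and 6.58% of all 897, and miR-221-3p was higher by 2.69. Strand ratios of the 11 hairpins of the list gave 0 calls in either line, with medians of 0.14 and -0.004 beside -0.01 and 0.06 for all 220. Of 11 names on a blood cell list, 3 could be tested in the pulldown, and miR-146a-5p passed as higher in the TRBP knockout (0.85, SE 0.24, adjusted p 0.0335).

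Long dsRNA did not detectably change miR-126 in either fraction. In total RNA of experiment 1 the ratio differed from mock by 0.26 with dsGFPc and 0.07 with dsGFPd (limma F test, adjusted p 0.45, where 21.8% of hairpins passed), miR-126-5p by 0.16 and 0.0040 (adjusted p 0.413) and miR-126-3p by -0.11 and -0.07 (adjusted p 0.783, where 19% of miRNAs passed). In the pulldown the ratio differed by -0.22 and -0.42 (adjusted p 0.652, 5.91% of hairpins), 5p by -0.32 and -0.26 (adjusted p 0.561) and 3p by -0.10 and 0.15 (adjusted p 0.717, 11.8% of miRNAs). Over the 8 libraries of each transfection the pulldown ratio had medians of 0.75 with mock, 0.27 with dsGFPc and 0.24 with dsGFPd, over overlapping ranges of 0.11 to 1.21, -0.22 to 1.53 and -0.50 to 1.67.

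Pulldown and total RNA were compared within the Parental line. In experiment 1 both strands were lower in the pulldown relative to the library: miR-126-5p differed by -0.69 (SE 0.19, adjusted p 0.00443) and miR-126-3p by -0.81 (SE 0.19, adjusted p 0.00201), where 64.7% of 556 miRNAs passed and the median of all was 0.45. The ratio differed by 0.12 (95% interval -0.55 to 0.79, adjusted p 0.744, where 56.6% of 122 hairpins passed). Without replicate 2 both calls were lost (5p -0.45, adjusted p 0.273, and 3p -0.89, adjusted p 0.0552). In experiment 2 none of the 3 measures passed: 5p differed by -0.27 (adjusted p 0.61), 3p by -0.01 (adjusted p 0.976, 29.9% of miRNAs passed) and the ratio by -0.25 (adjusted p 0.703, 24.3% of hairpins).

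Experiment 2 repeated the Parental line beside lines labelled as knockouts of Ago2, of Ago1/2 and of Dicer. In its Parental pulldown the strands were near balance, with ratios from -0.17 through a median of -0.13 to 0.25. In Parental total RNA 5 libraries ran from -0.59 to 0.14, and the dsGFPd library of replicate 2 stood apart at 1.83, with 354 reads of 5p and 97 of 3p. The pulldown libraries of experiment 2 repeated less well than those of experiment 1: the SD of the difference between replicates over abundant miRNAs had a median of 1.04, against 0.53. The shares of miRNAs that passed against Parental ran in opposite orders in the fractions, 6.37% for the Ago2 and 22.7% for the Ago1/2 label in total RNA, and 24% and 2.62% in the pulldown, so the lines are called by their labels here. Whether the Ago2 and Ago1/2 labels are exchanged in 1 of the fractions was not tested, and each value under them holds for the label only.

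In total RNA the libraries labelled Ago1/2 knockout held more 3p than 5p in all 6 cases, with ratios from -1.53 through -0.81 to -0.18. Those labelled Ago2 knockout ran from -1.05 through -0.17 to 0.55. The Ago1/2 label minus Parental was -1.07 (SE 0.87), which did not pass with all 4 lines in the fit (limma adjusted p 0.349, 41.2% of 153 hairpins passed). In that fit the median of all hairpins was -0.43, with 26.8% passing as lower and 14.4% as higher. miR-126 ranked 104 of 153 by absolute difference. That fit includes Dicer knockout libraries with almost no miR-126 reads. Without those libraries the adjusted p was 0.0295, and without the Parental dsGFPd library of replicate 2 as well the difference was -0.81 with an adjusted p of 0.0789. The share of 41.2% belongs to the fit with all 4 lines and not to these fits. The exact permutation p was 0.013, adjusted 0.0476 over the 11 comparisons, and 0.00433 to 0.0346 on leaving out single libraries. Without that Parental library the difference of means was -0.74 (exact permutation p 0.0281). The permutation test took the miR-126 ratio alone, without regard to the negative median of all hairpins. The Ago2 label minus Parental was -0.52 (adjusted p 0.794, 6.54% of hairpins passed, exact permutation p 0.273). The summed level of the 8 smooth muscle and blood cell markers differed between the lines in total RNA. Its medians were 45.3 (16.6 to 84.2) in Parental, 71.9 (36.5 to 92.4) under the Ago2 label and 151.6 (68.7 to 244.3) under the Ago1/2 label. In the shallow Dicer knockout libraries it was 509.4 (159.5 to 1953). Most of that sum was miR-143-3p, with medians of 45.3, 65.5, 142.2 and 418.6 in the same order. In the pulldown the sum had another order, with medians of 89.1, 184.3, 87.6 and 871.5. The part of these markers in the ratio was not tested.

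**Figure D4:**
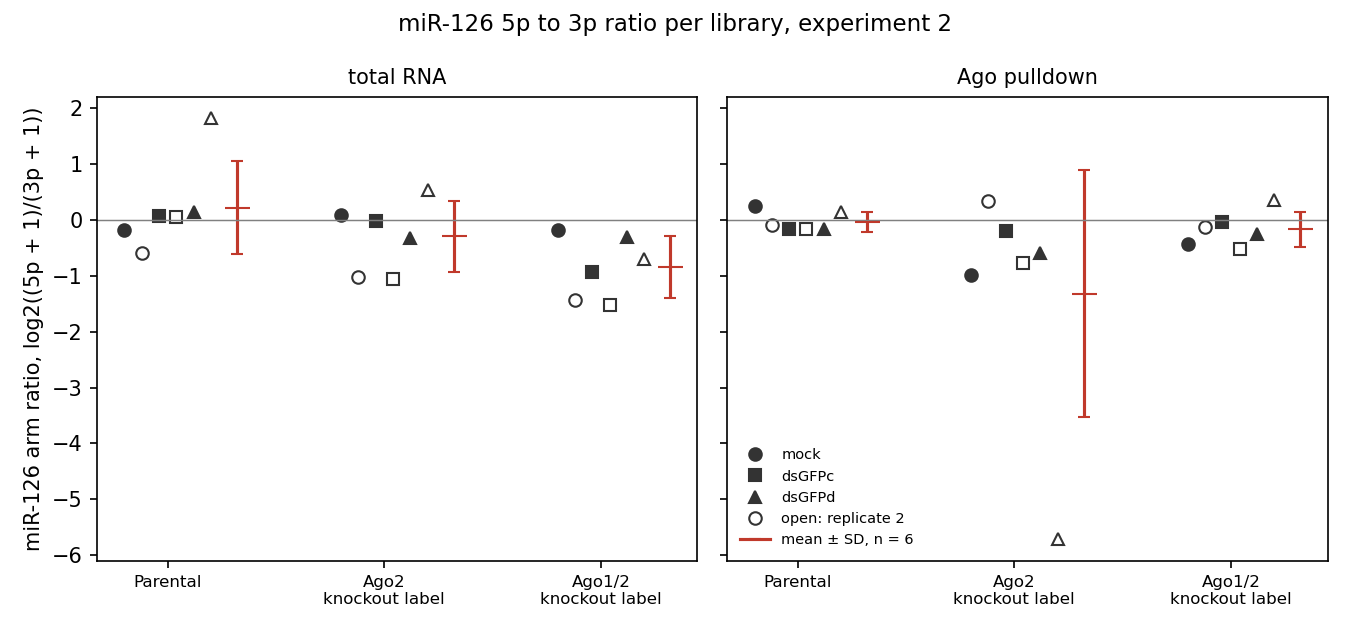
Each point is 1 library of experiment 2; the vertical axis is the log2 ratio of miR-126-5p to miR-126-3p, marker shape gives the transfection, open markers are replicate 2, and the red bar is the mean with its SD over 6 libraries (Dicer knockout libraries are left out because they hold too few reads). The point at -5.72 is the pulldown library with 0 reads of 5p, and the Parental total library at 1.83 stands above its group.

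The plot of experiment 2 by library shows that 1 library makes most of the pulldown difference of the Ago2 label. Its dsGFPd library of replicate 2 had 0 reads of miR-126-5p beside 86 of miR-126-3p, a 5p share of 0% with a Wilson 95% upper bound of 4.28%, and the other 5 libraries ran from -0.98 to 0.34. The difference from Parental was -1.28 with that library (SE 0.91, adjusted p 0.362, 26.1% of 184 hairpins passed, exact permutation p 0.0563, adjusted 0.124) and -0.40 without it (exact permutation p 0.115). The Ago1/2 label differed by -0.14 in the pulldown (adjusted p 0.98, 1.63% of hairpins passed, exact permutation p 0.375), over ranges of -0.52 to 0.36 and -0.17 to 0.25 in Parental. The strands did not pass the test against Parental in either fraction with all lines in the fit. In total RNA miR-126-5p differed by 0.22 (Ago2 label) and -0.37 (Ago1/2 label) and miR-126-3p by 0.74 and 0.69, with adjusted p-values of 0.989, 0.812, 0.855 and 0.556, where 6.37% and 22.7% of miRNAs passed. Without the Dicer knockout libraries the 3p strand passed for both labels (adjusted p 0.0231 and 0.0153), and without the Parental dsGFPd library of replicate 2 as well for Ago1/2 (0.55, adjusted p 0.0481) but not for Ago2 (0.59, adjusted p 0.0636). The shares of 6.37% and 22.7% belong to the fit with all lines. They are no background for these later calls. In the pulldown 5p differed by -1.17 and -0.05 and 3p by 0.12 and 0.09 (adjusted p 0.375, 0.986, 0.935 and 0.986, where 24% and 2.62% of miRNAs passed).

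The Dicer knockout libraries held few miR-126 reads and were shallow, so levels and ratios there rest on little. The 6 total libraries held 0, 2, 2, 3, 8 and 55 reads of 5p and 0, 0, 1, 1, 2 and 7 of 3p, and the 6 pulldown libraries 0 to 2 reads of each. The 55 reads were in the mock library of replicate 1, where they make a level of 1790 normalised counts against 38.4 to 114.5 in Parental libraries, and the median of the 6 levels was 29.2. A single read is worth 4.86 to 32.5 normalised counts in these shallow libraries (39916 to 593510 reads), against 0.0885 to 0.601 in the other lines of experiment 2. miR-126-3p was lower than Parental by limma in total RNA (-2.67, SE 0.76, adjusted p 0.00496) and in the pulldown (-3.39, SE 0.75, adjusted p 0.00078), and miR-126-5p in the pulldown (-3.20, SE 0.89, adjusted p 0.00491), where 52.3% and 50.4% of miRNAs passed. miR-126-5p in total RNA did not pass (-0.91, adjusted p 0.443), and passed without the mock library of replicate 1 (-2.002, adjusted p 0.0235). Without replicate 1 the other 3 calls were lost (-2.42, -2.51 and -2.47, adjusted p 0.104, 0.158 and 0.265). The ratio differed by 1.77 in total RNA (adjusted p 0.13, 33.3% of hairpins passed) and by 0.18 in the pulldown (adjusted p 0.903, 19% passed).

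In experiment 2 dsRNA did not detectably change the hairpin. The ratio differed from mock by -0.33 with dsGFPc and -0.34 with dsGFPd in total RNA (adjusted p 0.925, 2.61% of hairpins passed) and by -0.56 and -1.78 in the pulldown (adjusted p 0.449, 1.63% passed), where the dsGFPd value includes the library with 0 reads of 5p. For the strands the adjusted p-values were 0.744 (5p) and 0.80 (3p) in total RNA, where 2.02% of miRNAs passed, and 0.82 and 0.97 in the pulldown, where 0.131% passed. These fits include the Dicer knockout libraries with few miR-126 reads. The residual SD of the total RNA ratio was 1.46, against 0.26 in experiment 1. Without the Dicer knockout libraries the total RNA differences of the ratio and of 5p turned positive, so their direction is not settled.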

How the data were processed

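Small RNA libraries were made with a Lexogen kit from total RNA and from peptide-purified Ago complexes, per the labels' protocols. STAR and GRCh38 are named in the submitters' processing notes; versions, counter and normalization software are not given in the sources used here. The authors deposited normalised counts (a signal scaled per library) for each mature miRNA. Every value (100%) was a whole multiple of its column's step to within 0.01 of 1 read, which returned the read numbers. Of 2883 rows, 231 repeats of a mature name were set aside, keeping the one with most reads. The table named for experiment 3 held the same bytes as that of experiment 2, so experiment 3 was not analysed here.

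A miRNA entered a fit with 10 or more reads in 6 or more of its libraries (both strands for a ratio). Features were tested with limma 3.58.1 (R 4.3.3; lmFit, eBayes with trend) on log2(value + 1), or log2((5p + 1)/(3p + 1)), over 24 libraries of 1 experiment and fraction, with additive terms for line and transfection (for fractions, over 12 Parental libraries). P-values were adjusted by Benjamini-Hochberg over all features, threshold 0.05. Single ratios of 6 against 6 libraries were also compared by an exact two-sided permutation test (924 arrangements, adjusted over 11 comparisons). Alternatives included edgeR 4.0.16 and DESeq2 1.42.0 on recovered reads. Structures came from RNAfold 2.7.2. Fits were tested on simulated data.

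Members, marker and miRNA lists, and the naming rule were chosen with earlier results of these data known. The rule names both strands, miR-221, list members, and the 3 hairpins or miRNAs with the highest Pearson r; the hairpins ranked beside miR-126, list members that passed, and the interaction with dsRNA were named after their values were seen. Libraries of a line and transfection share replicate numbers 1 and 2. Differences between replicates correlated above 0.1 in 36 of 36 pairs of groups in the experiment 2 pulldown (Dicer knockout left out), but in 59 of 66 and 40 of 66 in the pulldown and total RNA of experiment 1 and 25 of 36 in total RNA of experiment 2, so the numbers were taken to pair libraries in the first only. The main fits had no term for the replicate number, and the permutation tests shuffled libraries across the numbers in every comparison. Both therefore ignore any pairing, also in the experiment 1 pulldown, where the median correlation was 0.34.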

Additional observations from a re-analysis of the deposited data

Results flagged for a closer look

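Within each set of 6 libraries of a line and fraction, the highest and lowest values of miR-126-5p, miR-126-3p and the ratio were compared with the rest, on a log2 scale. Of 48 sets, 4 held a library whose gap to its nearest neighbour exceeded 0.625 of the whole range; chance gives about 1 in 20. In the Ago2 knockout label pulldown, the dsGFPd library of replicate 2 had a miR-126-5p level of 0.0 (nearest 37.2 normalised counts) and a log2 ratio of -5.72 (nearest -0.98). In Parental total RNA of experiment 2, the dsGFPd library of replicate 2 had a ratio of 1.83 (1.835 before rounding; nearest 0.14). In the Parental pulldown of experiment 2, the dsGFPd library of replicate 2 had a miR-126-3p level of 27.02 normalised counts (nearest 58.8). No set of experiment 1 was singled out in this way. All 4 values come from dsGFPd libraries of replicate 2 in experiment 2.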

How the results depend on the processing

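Each of 66 values (22 ratios, 44 levels) was recomputed. Of 602 values under other settings 34 counted as changed, and of 1068 values leaving out libraries 85 did. For tested values this meant another direction or side of the threshold. For the choosing contrasts in total RNA, which carry no test, it meant a move of at least the residual SD. With the replicate block all 66 of 66 counted as unchanged (PACT_TRBP knockout minus Parental, pulldown ratio 0.88, limma adjusted p 0.201), so the block changed no call on miR-126. Other tools, filters and fits ended the level calls of PACT_TRBP minus TRBP knockout in total RNA: 3p was lost with edgeR (adjusted p 0.0942), DESeq2 (0.0906) and only the lines compared (0.0792), and both strands without a filter (0.098 and 0.135). Where direction or call changed, the cause was not tested. In total RNA of experiment 1, PACT knockout 5p became 0.06679 (same sum) and 0.00476 (quantile), the PACT_TRBP minus TRBP knockout ratio -0.1966 (mock only), and dsRNA 5p -0.03921 (quantile). In the pulldown, the PACT knockout ratio became 0.003953 (pseudocount 10), and the PACT_TRBP knockout ratio of 0.8811 passed among abundant hairpins. In experiment 2 total RNA, the Ago1/2 ratio of -1.066 passed with only the lines compared and without Dicer knockout libraries. Without the latter the dsRNA ratio became 0.3677 and 5p 0.1168, and 0.24 and 0.06268 without the Parental dsGFPd library of replicate 2 as well (added after seeing the data). Dicer knockout 5p became 0.4668 (edgeR) and 0.5472 (DESeq2). In its pulldown, Ago2 3p became -0.475 (edgeR), -0.5497 (same sum), -0.214 (quantile) and -0.1091 (DESeq2), Ago1/2 3p -0.1153 (edgeR), and dsRNA 5p 0.1248 without Dicer knockout libraries and the one with 0 reads (added after seeing the data). The filter on means of at least 50 gave no value for the 4 pulldown ratios of experiment 2, where miR-126 failed it. Hairpins called for the pulldown ratio went from 0 to 2 (TRBP), 3 (PACT_TRBP) and 1 (PACT_TRBP against PACT) with pseudocount 10, and for PACT_TRBP against TRBP from 1 to between 0 and 7. Without Dicer knockout libraries, ratio calls went from 10 to 59 (Ago2, total), 48 to 73 (Ago2, pulldown) and 3 to 21 (Ago1/2, pulldown). Leaving out a replicate or a library turned the direction of these values, given as lowest to highest. In experiment 1 total RNA these were PACT knockout 5p (-0.13 to 0.10) and the PACT_TRBP minus TRBP knockout ratio (-0.13 to 0.17). In its pulldown they were the PACT knockout ratio (-0.18 to 0.18), 5p (-0.14 to 0.35) and 3p (-0.017 to 0.22), PACT_TRBP minus PACT knockout 5p (-0.049 to 0.64), the PACT_TRBP minus TRBP knockout ratio (-0.20 to 0.67), 5p (-0.33 to 0.057) and 3p (-0.75 to 0.026), and dsRNA 3p (-0.17 to 0.22). In experiment 2 total RNA they were Ago2 5p (-0.11 to 0.50), Ago1/2 5p (-0.88 to 0.13), Dicer knockout 5p (-2.29 to 0.48), and dsRNA ratio (-0.97 to 0.30) and 5p (-1.84 to 0.016). In its pulldown they were Ago2 3p (-0.19 to 0.33), the Ago1/2 ratio (-0.47 to 0.13), 5p (-0.34 to 0.32) and 3p (-0.22 to 0.41), the Dicer knockout ratio (-0.40 to 0.78) and dsRNA 3p (-0.16 to 0.68). Between Parental fractions they were the ratio in experiment 1 (-0.20 to 0.44) and the ratio (-0.47 to 0.04997), 5p (-0.58 to 0.045) and 3p (-0.18 to 0.19) in experiment 2. Depth limits total RNA of experiment 1 (48 to 312 reads a strand) and Dicer knockout libraries most.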
